A study of Arabidopsis thaliana with 12 samples.

Results

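Cytochromes P450 are haem enzymes that insert oxygen into their substrates, with electrons passed on by a reductase, and in plants they form one of the largest enzyme families. In anthers, members of the family are known for making monomers of the outer pollen wall and phenolic conjugates of the pollen coat, and elsewhere in the flower for hydroxylating cuticle lipids, hormones and scent compounds. The P450s described here are the probe sets whose single gene symbol in the probe annotation is a P450 name of the form family, subfamily letter and number. There were 23 such probe sets, each for a different gene, among 22810 on the array. Of these genes, 19 belong to subfamily CYP71B and the other 4 are CYP51G2, CYP78A9, CYP79A2 and CYP84A4. The P450s best known from pollen wall synthesis, CYP703A2 and CYP704B1, were not among them and were not analysed here.

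RNA came from Arabidopsis thaliana anthers with their filaments, hybridised to 12 Affymetrix ATH1 arrays in 6 groups of 2. The ms35 mutant, whose anthers do not open, was sampled at stages labelled pollen mitosis I (PMI), bicellular and pollen mitosis II (PMII), and a wild-type control at the same stages. The ms35 plants are labelled as a gene knock-out in Ler-0, while the control's source is named Glabra (stock code N64) and its array titles name Ler, so the labels do not settle whether both lines share a background. All plants grew at 22 °C under a cycle of 22 h light and 2 h dark. The replicates carry the numbers 1 and 2, and nothing in the labels says that they came from separate plants, so the spread between them may be technical. The p-values below set differences between groups against that spread. It was pooled over the 6 groups and adjusted towards that of probe sets with similar signal. The series was made to find genes downstream of MS35/MYB26, a transcription factor needed for anther opening, and the question for the P450s is which of them differed between ms35 and wild type or between stages.

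Signal is the deposited value per probe set on a linear scale. A signal of 25, close to the 40th percentile of all values (25.5), is used as the limit below which a probe set is treated as dim. Across the probe sets above that limit in at least 2 arrays, the 2 arrays of a group correlated with r between 0.899 and 0.936. The median signal of all probe sets was between 37.3 and 45.2 per array. Markers of the labelled tissue exceeded 25 in at least 2 arrays, as did 72.9% of all probe sets. They were all 3 tapetum genes with a named probe set (of 7 listed), all 7 such late pollen genes (of 9 listed) and the germ line gene MGH3. ACT12, AGL66 and AGL104 exceeded 25 in all 12 arrays. Others were dim on most arrays, with medians of 8.59 for AT5G07230, 3.09 for ANX1, 2.67 for ANX2 and 15.9 for PLIM2a. Passing the limit therefore says little about the tissue. The green tissue genes LHCB4.1, RCA and PRK exceeded 25 in all 12 arrays, as did the carpel gene SPT. The ovule gene INO exceeded 25 in 6 arrays with a median of 22.2, so other floral or green tissue cannot be told apart from the filament here. In whole anthers, fewer cells of a type and less RNA per cell cannot be told apart. Precision is limited by the number of arrays.

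The genes sit mostly in tandem groups, which the choice of symbols did not use. In the locus order of the gene table (TAIR10.1, used for names and neighbours only), 18 CYP71B genes lie within 24 consecutive loci on chromosome 3, and 11 of them are members: CYP71B16, CYP71B21, CYP71B22, CYP71B23, CYP71B24, CYP71B25, CYP71B26, CYP71B34, CYP71B35, CYP71B36 and CYP71B37. On chromosome 1, CYP71B27, CYP71B28 and CYP71B29 belong to a run of 5 adjacent CYP71B genes. CYP71B5, CYP71B30P and CYP71B31 lie in a second group on chromosome 3, while CYP71B6 on chromosome 2 and CYP71B38 on chromosome 3 stand alone. The gene table classes 2 members, CYP71B27 and CYP51G2, as transcribed pseudogenes. Tandem P450 genes are often close in sequence. All 23 probe sets have the plain suffix that the array's naming gives to probes of a single gene, but cross-hybridisation between neighbours was not tested.

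Most of these P450s were dim in every group. Only 6 of 23 (26.1%) exceeded 25 in at least 2 arrays, against 16583 of 22746 probe sets in all (72.9%). The 6 are CYP71B6, CYP71B28, CYP71B34, CYP71B35, CYP71B22 and CYP51G2. In all 12 arrays the limit was exceeded by 2 of 23 (8.70%), CYP71B6 and CYP71B28, against 43.9% of all probe sets. In no array was it exceeded by 12 of 23 (52.2%), against 20.5% of all probe sets. The median over members of each member's median signal was 8.87, against 40.2 over all probe sets. Next to the limit, the second highest array was 27.6 for CYP71B34, 27.8 for CYP51G2 and 34.0 for CYP71B22, which passed. It was 24.5 for CYP71B27 and 23.7 for CYP78A9, which did not.

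**Figure D1:**
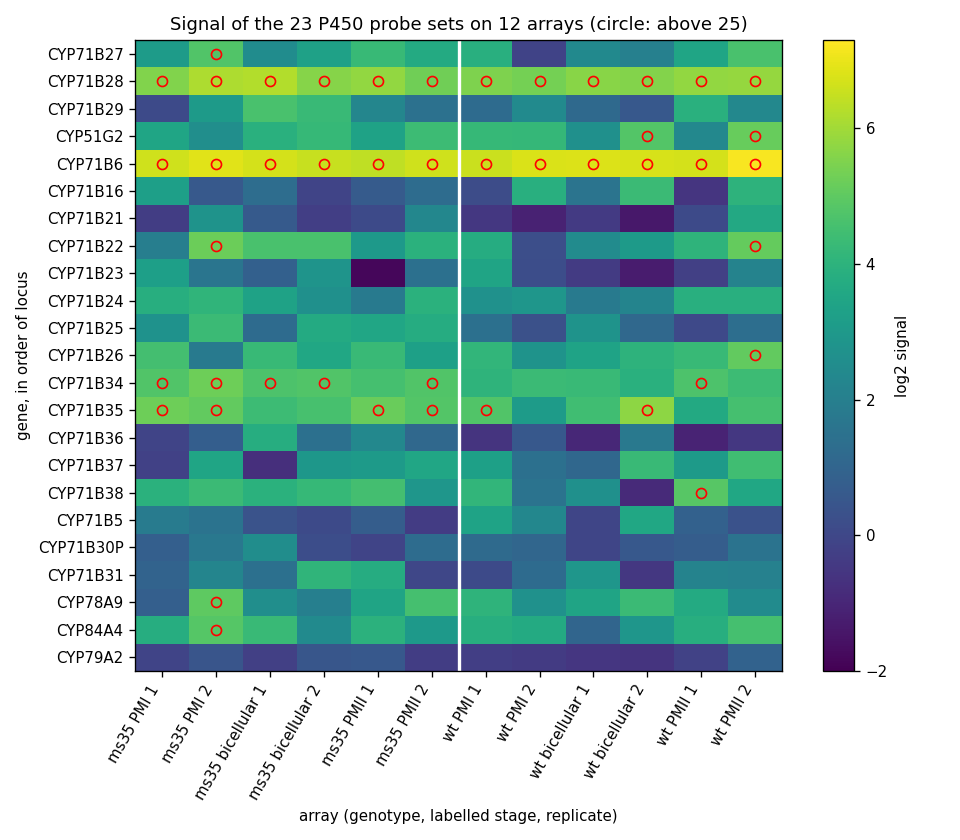
Log2 signal (colour) of the 23 P450 probe sets in rows, ordered by locus, on the 12 arrays in columns, ms35 left of the white line and wild type right of it; a red circle marks a signal above 25. CYP71B6 and CYP71B28 carry a circle on all 12 arrays, and 12 of the 23 rows carry none.

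The number of P450 probe sets above 25 varied from 2 to 8 per array. It was 4 and 8 in ms35 PMI, 3 and 3 in ms35 bicellular and 3 and 4 in ms35 PMII, against 3 and 2 in wild type PMI, 2 and 4 in wild type bicellular and 4 and 5 in wild type PMII. At PMI both ms35 counts lay above both wild-type counts. The P450 counts of the genotypes overlapped at bicellular and shared a count of 4 at PMII. Between stages, ms35 PMI lay above ms35 bicellular and wild type PMII above wild type PMI. The other pairs of stages within a genotype overlapped or shared a count. Shares of all probe sets above 25 overlapped in each separated pair. They were 59.1% and 62.8% in ms35 PMI, 60.3% and 61.5% in ms35 bicellular, 59.4% and 59.8% in wild type PMI and 59.5% and 64.1% in wild type PMII. Separation of the P450 counts arises easily with 2 arrays in each group. The highest counts were 8 in ms35 PMI replicate 2 and 5 in wild type PMII replicate 2. These arrays also had the most probe sets of any kind above 25, at 62.8% and 64.1%, while the other 10 arrays ranged from 58.7% to 61.5%. Their ratios of 3' to 5' GAPDH control signal, a sign of RNA integrity, were 2.11 and 2.86, the third highest and the highest of the 12, with 2.37 in ms35 bicellular replicate 2 between them and 1.29 to 1.82 on the others. The part of these differences in the counts was not tested.

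CYP71B6, known to act on indole-3-acetonitrile in the metabolism of indole compounds, was the steadiest of the tested members. Its signal was 98.4 and 118 in ms35 PMI, 105 and 90.8 in ms35 bicellular and 85.0 and 100.1 in ms35 PMII. In wild type it was 95.0 and 109.6 in PMI, 111 and 107 in bicellular and 104 and 148 in PMII. Over all arrays the highest value was 1.74 times the lowest. The genotypes overlapped at PMI, and at bicellular and PMII both ms35 arrays lay below both wild-type arrays. With 2 arrays in each group such separation arises easily. Its share over all probe sets was not counted, here or for the genes below. The difference ms35 minus wild type averaged over stages was -0.17 ± 0.14 on the log2 scale (SE; limma adjusted p = 0.586), with a 95% confidence interval from -0.46 to 0.13. At PMII it was -0.42 ± 0.24 (adjusted p = 0.578). The spread between its replicates was low, with a residual SD of 0.19 on the log2 scale against a median of 0.33 over all tested probe sets.

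CYP71B28 was the other member above 25 in every array. It had 46.7 and 70.7 in ms35 PMI, 74.5 and 48.3 in ms35 bicellular and 55.9 and 38.8 in ms35 PMII. Wild type had 45.7 and 41.3 in PMI, 49.8 and 48.1 in bicellular and 55.4 and 56.8 in PMII. The ms35 replicates lay 1.44 to 1.54 times apart at each stage, while wild-type replicates lay 1.03 to 1.11 times apart. Both ms35 arrays lay above both wild-type arrays at PMI, and the genotypes overlapped at bicellular and PMII. The averaged difference was 0.14 ± 0.19 (limma adjusted p = 0.769), with an interval from -0.27 to 0.55. Its neighbours on chromosome 1 were dim on the same arrays: CYP71B27 exceeded 25 in 1 array (27.2, ms35 PMI replicate 2) and CYP71B29 in none, its highest signal being 24.97.

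CYP71B34 and CYP71B35 are adjacent in the chromosome 3 group and were the members of that group above 25 most often, each in 6 arrays. CYP71B34 had 27.1 and 38.2 in ms35 PMI, 26.3 and 27.1 in ms35 bicellular and 23.5 and 27.6 in ms35 PMII. In wild type it had 16.4 and 20.2 in PMI, 19.8 and 15.1 in bicellular and 26.1 and 20.7 in PMII. It thus exceeded 25 in 5 ms35 arrays and 1 wild-type array, and the genotypes did not overlap at PMI or bicellular but overlapped at PMII. The averaged difference was 0.48 ± 0.25 (limma adjusted p = 0.334), with an interval from -0.06 to 1.02, so it did not pass. All values lie close to the limit for dim probe sets. Without ms35 PMI replicate 2 and wild type PMII replicate 2, the arrays with most P450 probe sets above 25, the averaged difference was 0.35 ± 0.29 (adjusted p = 0.626).

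CYP71B35 had 38.1 and 33.1 in ms35 PMI, 20.8 and 24.3 in ms35 bicellular and 35.9 and 27.9 in ms35 PMII. Wild type had 27.2 and 8.53 in PMI, 21.6 and 53.1 in bicellular and 12.5 and 23.3 in PMII. Both ms35 arrays lay above both wild-type arrays at PMI and PMII, and the genotypes overlapped at bicellular. The wild-type replicates differed 3.18 times at PMI and 2.46 times at bicellular, against 1.15 and 1.17 times in ms35. The averaged difference was 0.45 ± 0.33 (limma adjusted p = 0.538), with an interval from -0.28 to 1.17. The step from PMI to bicellular in wild type, 1.03 ± 0.57, had the lowest adjusted p of any tested member in any comparison (0.242). That step rested on single arrays. Leaving out a PMI array of wild type set it at 1.76 (replicate 1 dropped) or 0.31 (replicate 2 dropped), and leaving out a bicellular array set it at 1.64 (replicate 1 dropped) or 0.42 (replicate 2 dropped). Its adjusted p lay between 0.102 and 0.807 over all settings.

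The remaining tested members passed the limit with the smallest number of arrays that allows it, 2 of 12. CYP71B22 had 3.89 and 36.7 in ms35 PMI, 24.9 and 24.7 in ms35 bicellular and 8.11 and 15.2 in ms35 PMII, while wild type had 13.5 and 1.19 in PMI, 5.63 and 8.41 in bicellular and 16.5 and 34.0 in PMII. Its values above 25 came from ms35 PMI replicate 2 and wild type PMII replicate 2, and without either array it no longer reached the limit in 2 arrays. Its residual SD of 1.07 was higher than that of 95.2% of tested probe sets. The genotypes did not overlap at bicellular, where ms35 was higher, or at PMII, where ms35 was lower. The difference was 1.56 ± 0.96 at bicellular (limma adjusted p = 0.637) and -0.96 ± 0.96 at PMII (adjusted p = 0.791).

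CYP51G2 is a second copy of the sterol demethylase gene CYP51 and is classed as a pseudogene. It had 11.2 and 6.08 in ms35 PMI, 15.0 and 18.9 in ms35 bicellular and 10.4 and 20.6 in ms35 PMII. Wild type had 18.7 and 18.1 in PMI, 6.43 and 27.8 in bicellular and 5.02 and 35.2 in PMII. Both values above 25 were in wild type, on replicate 2 of bicellular and of PMII, and each replicate 1 lay at 6.43 or below. Both ms35 arrays lay below both wild-type arrays at PMI, and the genotypes overlapped at bicellular and PMII. The averaged difference was -0.23 ± 0.49 (limma adjusted p = 0.863).

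**Figure D2:**
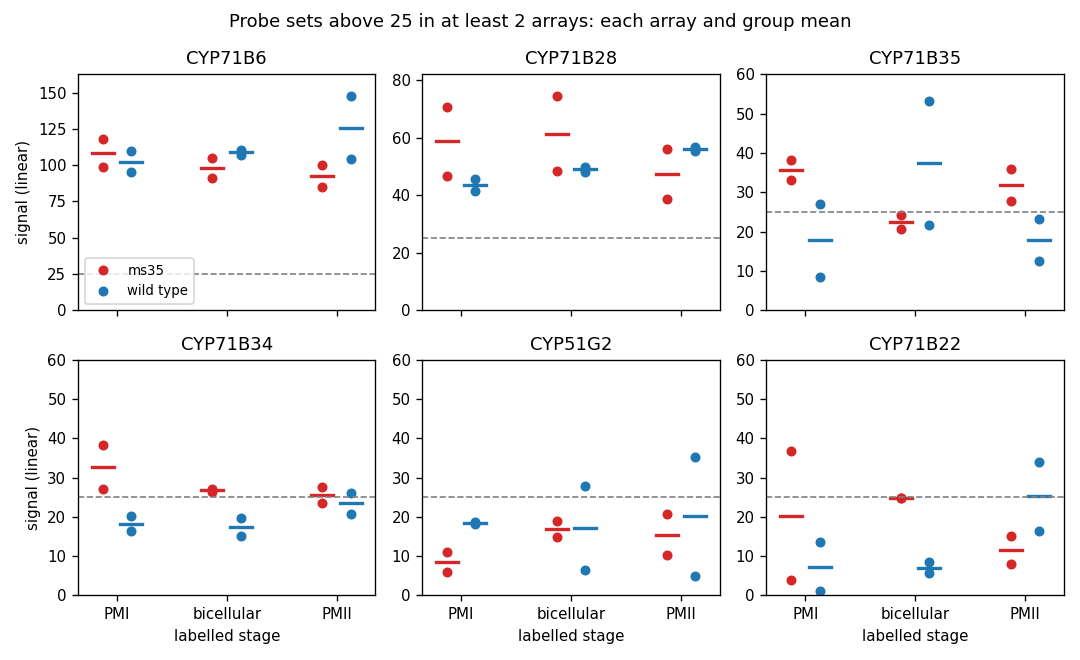
Linear signal of the 6 P450 probe sets above 25 (dashed line) in at least 2 arrays, by labelled stage, with ms35 in red left of wild type in blue; points are arrays and short lines are group means (n = 2). CYP71B6 lies between 85.0 and 148 on all arrays, while CYP71B35, CYP51G2 and CYP71B22 show replicates far apart in several groups.

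The other 17 P450s exceeded 25 in 1 array (5 members) or none (12 members), so their values bound the signal and carry no order. Of the 5, CYP84A4, which makes alpha-pyrones derived from phenylpropanoids and is related to the lignin enzyme ferulate 5-hydroxylase, reached 28.7, and CYP78A9, a growth regulator of fruit and seed, reached 31.7. Both of these, and the 27.2 of CYP71B27, came from ms35 PMI replicate 2. CYP71B26 reached 33.8 in wild type PMII replicate 2 and CYP71B38 reached 29.2 in wild type PMII replicate 1. So 4 of the 5 single values above 25 were on ms35 PMI replicate 2 and wild type PMII replicate 2. These values are part of the counts that placed those arrays highest, so they are not a separate result.

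Of the 12 that never exceeded 25, CYP79A2, which starts benzylglucosinolate synthesis from phenylalanine, had no signal over 1.89. CYP71B31, known to oxidise linalool in flowers, had its highest signal at 17.1, in ms35 bicellular replicate 2. Its neighbours CYP71B5 and CYP71B30P had highest signals of 11.7 and 5.88. In the chromosome 3 tandem group, the highest signals were 20.3 for CYP71B16, 12.1 for CYP71B21, 10.9 for CYP71B23, 16.8 for CYP71B24, 20.4 for CYP71B25, 13.9 for CYP71B36 and 21.9 for CYP71B37.

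No P450 was called between ms35 and wild type. On log2(signal + 2.22), limma with Benjamini-Hochberg adjustment over all 16583 tested probe sets called 0 of the 6 tested P450s for the averaged effect, against 5.23% of all tested probe sets. At the single stages it called 0 of 6 at PMI (2.02% of all), 0 of 6 at bicellular (1.75% of all) and 0 of 6 at PMII (0.941% of all). The genotype effect was not called to differ between stages for any of the 6 (0.193% of all). None of the 54 tests of the 6 members over the 9 comparisons had an unadjusted p under 0.05. Of all 16583 tested probe sets, between 1342 (interaction) and 5334 (PMI to bicellular in wild type) had such a p in a comparison. The 54 tests reuse the same 6 members and the same arrays, so they are not independent. With so few tested members, counts of 0 calls do not set the P450s apart from the shares of calls given here.

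Fitted without the limit on dim probe sets, all 23 members could be tested among 22746, and 0 were called. The shares of all probe sets called were then 3.41% for the averaged effect, 1.32% at PMI, 1.13% at bicellular, 0.637% at PMII and 0.123% for the interaction. Over the 9 comparisons, 10 of 207 tests of members (4.83%) had an unadjusted p under 0.05, against 13.4% for all probe sets. These shares compare unlike probe sets, as 26.1% of members passed the limit against 72.9% of all. The 10 all came from CYP71B25, CYP71B29, CYP71B38 and CYP84A4, some of them in several comparisons, so they are not independent. Among the 10 was CYP71B29 at bicellular, with 24.97 and 19.8 in ms35 and 2.24 and 1.49 in wild type. Its difference there was 2.59 ± 0.71 (limma adjusted p = 0.150). CYP71B25 was another, with an averaged difference of 1.35 ± 0.43 (limma adjusted p = 0.127). Both genes stayed below 25 on every array, and neither difference passed.

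**Figure D3:**
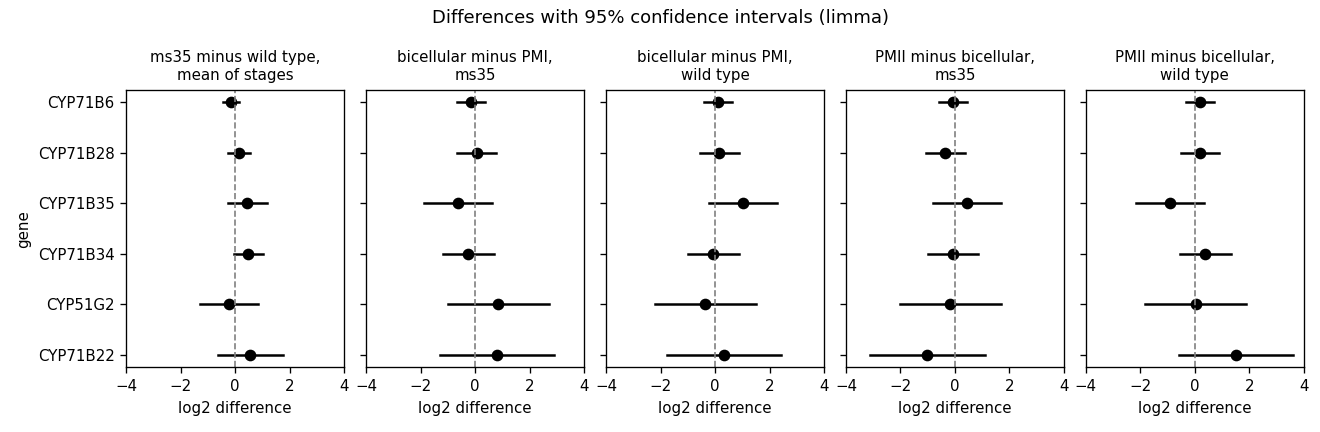
Log2 differences (points) with 95% confidence intervals (lines) from limma for the 6 tested P450s, for ms35 minus wild type averaged over stages and for the 2 stage steps in each genotype. Every interval shown includes 0, and those of CYP71B6 and CYP71B28 are the narrowest in each panel.

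The tested P450s were also not called between stages, including the step with the most calls among all probe sets. With 6 tested members, counts of 0 do not set them apart from the shares of all tested probe sets given here. From PMI to bicellular 0 of 6 tested members were called in ms35 (2.59% of all tested probe sets) and 0 of 6 in wild type (17.8% of all). From bicellular to PMII 0 of 6 were called in ms35 (0.41% of all) and 0 of 6 in wild type (1.55% of all). Without the limit the count was 0 of 23 in each, with 1.43% of all probe sets called in ms35 and 12.1% in wild type from PMI to bicellular, and 0.158% in ms35 and 0.936% in wild type from bicellular to PMII. For CYP71B6 the step from PMI to bicellular was -0.14 ± 0.24 in ms35 (adjusted p = 0.804) and 0.09 ± 0.24 in wild type (adjusted p = 0.836), and the wild-type interval ran from -0.42 to 0.61. For CYP71B28 it was 0.06 ± 0.33 in ms35 (adjusted p = 0.946) and 0.16 ± 0.33 in wild type (adjusted p = 0.781), with a wild-type interval from -0.54 to 0.87.

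Enzymes that work beside P450s in the same pathways could be read for few genes. Of 92 listed symbols, aliases included, for pollen wall, lignin, flavonoid, coumarin, cuticle and hormone pathways and for electron donors of P450s, 6 genes had a named probe set and all were tested: HCT, SHT, DFR, UGT78D1, UGT78D2 and AT3G13610, which encodes the coumarin enzyme F6'H1. None of the 9 listed electron donors was named. For the averaged genotype effect 2 fell, HCT and AT3G13610, and none rose, where 5.23% of all tested probe sets were called. The lists were chosen with earlier results of these data known, so these counts are no test against that share. AT3G13610 also passed the limit for testing only through its wild-type arrays of bicellular and PMII. It had 248 to 464 on those arrays and 0.94 to 4.66 on the ms35 arrays. Fitted without the limit, its averaged difference was -4.70 ± 0.36 (limma adjusted p = 9.8e-06). By stage, AT3G13610 was not called at PMI (limma adjusted p = 0.243), where it was dim in both genotypes. It had 5.12 and 17.9 there in wild type and 1.52 and 2.11 in ms35. HCT was not called at PMII (adjusted p = 0.253). Both genes were called lower in ms35 at the other stages. HCT makes the ester on which the P450 CYP98A3 acts in lignin synthesis. From PMI to bicellular, SHT, a tapetal acyltransferase of pollen coat phenolics, rose in both genotypes and AT3G13610 rose in wild type (2.59% of all tested probe sets were called in ms35 and 17.8% in wild type). From bicellular to PMII HCT fell in wild type (1.55% of all called). Of the 120 P450 symbols on the same lists, 5 had a probe set (CYP51G2, CYP71B31, CYP78A9, CYP79A2 and CYP84A4), of which 1, CYP51G2, was tested and not called.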

How the data were processed

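Intensity values, as signal per probe set on a linear scale, were made and deposited by the authors with MAS5 and GCOS, per the submitters' processing notes, with versions not given in the sources used here. Each array had a mean of 100.0 once the lowest and highest 2% of its values were set aside, the mark of global scaling. From these values, 64 control probe sets were left out and log2(signal + 2.22) was computed, with the 10th percentile of the whole table as pseudocount. Differences on this scale understate changes of dim genes. Probe sets above 25 in at least 2 arrays (16583) were tested with limma 3.58.1 in R 4.3.3: 1 fit of 6 group means over 12 arrays, an intensity trend in the variance, 6 residual degrees of freedom, and Benjamini-Hochberg adjustment at 0.05 across all tested probe sets. The fit was run on simulated data with independent noise and a genotype shift equal at every stage, and only the averaged effect was checked. That check says nothing about the other comparisons or about probe sets that did not pass the limit.

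In the probe annotation 13513 probe sets had a single gene, 503 had several and 8730 had no name. All 23 P450 probe sets matched the gene table, which holds 213 further P450 symbols not analysed here, and 2 probe sets with several symbols including a P450 were left out. The symbol CHI was dropped from the flavonoid list because the annotation gives it to another gene. Members and lists were chosen with earlier results of these data known. Named were the called members, the 10 of highest mean signal and list members, and in the end all 23.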

Additional observations from a re-analysis of the deposited data

How the results depend on the processing

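The number of P450s called was 0 in each of the 9 comparisons under all 22 other settings: quantile normalization, median centring, pseudocounts of 1 and 16, no filter, a filter at the 40th percentile or at 100, the replicate block, no intensity trend, each array left out in turn, and ms35 PMI replicate 2 left out together with wild type PMII replicate 2 (added after seeing the data). The lowest limma adjusted p of any P450 in any of these was 0.102. With the filter at 100 only 1 member, CYP71B6, could be tested, and without both arrays named above 4 could. A count of 0 among so few members is weak evidence of stability. Of 48 differences of the 6 tested members, none of which passed, 18 changed sign under at least 1 setting, among them the step from PMI to bicellular of CYP71B6 in wild type (3 settings) and of CYP71B28 in ms35 (4 settings), so their printed signs carry no direction. Averaged over stages, the difference ran from 0.31 to 0.56 for CYP71B34, 0.20 to 0.69 for CYP71B35, 0.04 to 0.24 for CYP71B28, 0.19 to 1.01 for CYP71B22, -0.62 to -0.08 for CYP51G2 and -0.25 to -0.08 for CYP71B6 over the settings in which each was tested. Over all probe sets, the calls for the averaged effect ran from 489 to 990. The labels do not say that a replicate number marks a shared batch, and differences between replicates correlated between groups with r from -0.12 to 0.18, over 0.1 in 4 of 15 pairs of groups. With the replicate block, 0 P450s were called in each comparison. No detection calls or measured background were used, so the limit of 25 is a chosen one, and 17 of 23 members did not reach it in 2 arrays.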
